A study of Mus musculus with 27 samples.

Results

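The genes described here encode the proteins of the mitochondrial ribosome. They were taken as the rows of the deposited count table whose gene symbol starts with Mrpl or Mrps followed by a number and whose biotype is protein coding. This gave 78 of 55483 genes, of which 49 carry an Mrpl symbol and 29 an Mrps symbol. The symbols stand for the large and the small subunit, with exceptions such as Mrps30 and Mrps36, described further on. The cells were RAW264.7, an established mouse macrophage line, and every group was harvested after 6 h. The groups were DMSO (the vehicle), LPS (bacterial lipopolysaccharide, 1 µg/ml, given together with DMSO) and LPS+TM7nox, in which a tanshinone mimic at 10 µM was given with LPS; about 30 M cells went into each sample. Each treatment had 4 total RNA libraries, 4 libraries of RNA immunoprecipitated with an antibody to HuR (RIP) and 1 library of an IgG control immunoprecipitation, all of the IgG libraries being replicate 3. The samples come from 1 cell line, and nothing in the labels says whether the replicates were separate cultures, so the p-values measure the spread between these samples only.

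The mitochondrial ribosome translates the few messages encoded in mitochondrial DNA, all of them subunits of the oxidative phosphorylation complexes, and its RNA comes from the same genome. All of its proteins are encoded in the nucleus, made in the cytosol and imported. A part of them have bacterial counterparts, and the rest are found only in mitochondria. HuR, encoded by Elavl1, is an RNA-binding protein known for binding U-rich and AU-rich stretches in the 3′ untranslated regions (3′UTRs) of messages, among them those of inflammatory genes that macrophages make after LPS. The study asked how the response to LPS, and the RNA held by HuR, changed with the mimic.

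The libraries held 2.73 M to 41.4 M counts. The shallowest was DMSO RNA replicate 1, and the other 26 libraries had at least 8.87 M. Macrophage markers were present (Lyz2 at 1250 to 4290 counts per M counts, CPM), except that Mertk stayed at or under 1.13 CPM, and no marker of T cells, B cells, neutrophils, fibroblasts, epithelium or endothelium passed 3.25 CPM. Elavl1 RNA was at 75.1 to 130 CPM in total RNA, 60.7 to 91.8 CPM with IgG and 2040 to 5260 CPM in the RIP libraries. Levels are given as CPM on 1 TMM scale over all 27 libraries, a scaling that sets the bulk of genes level between libraries. RIP and total RNA libraries differed widely in composition: mitochondrially encoded RNA took 12.1 to 22.4% of counts in total RNA and 0.559 to 1.86% in RIP.

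Mitoribosomal protein messages were measured in all but 1 case: 77 of the 78 genes passed the filter on low counts in every comparison, and Mrpl53 was listed at 0 counts in all 27 libraries. Whether that 0 reflects the cells, the annotation or the counting cannot be told apart. Together they took 8756 to 95112 counts per library. In DMSO RNA, the level in CPM was highest for Mrpl12 at 138 ± 32 (SD, n = 4). It encodes the stalk protein that recruits translation factors. Counted per kilobase of the annotated transcript, the highest levels were those of Mrpl42 (92.3 CPM per kb), Mrps21 (91.6) and Mrpl20 (65.0), and the lowest were those of Mrpl14 (3.48), Mrpl43 (2.66) and Mrps18c (0.628). The transcript that the macrophages use is not known for each gene, so these values per length depend on the annotated model. Counts were small for a few members: Mrps34 had a median of 21 counts per library, Mrps18c 53, Mrpl33 61 and Mrpl43 49. Some members share exon bases with a gene on the other strand, and such reads cannot be told apart without a known strand setting. Beside Mrpl34 and Mrpl18, described further on, that holds among the members named for 3536 bases of Mrps25, 2443 of Mrps18c, 1019 of Mrpl24, 852 of Mrpl10, 651 of Mrps30, 638 of Mrps18b, 616 of Mrpl47, 596 of Mrpl37 and 367 of Mrpl13, and for under 300 of others such as Mrpl21.

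Most mitoribosomal protein messages were low in the HuR immunoprecipitates. In DMSO, 66 of the 77 were lower in RIP than in total RNA and 5 were higher (edgeR quasi-likelihood test, FDR under 0.05), where 33.4% of all genes tested were lower and 37.0% higher (70.4% in all). Their median log2 ratio of RIP over RNA was -1.44, beside 0.04 for all genes. LPS gave 66 lower and 2 higher (30.8% and 32.9% of all genes, 63.7% in all), with a median of -1.1. With LPS+TM7nox, 67 were lower and 4 higher (34.8% and 35.2% of all genes, 69.9% in all), with a median of -1.46. In all 3 treatments, 63 of the 77 were lower and 2, Mrpl1 and Mrpl51, were higher. The share of all genes called alike in all 3 was not counted. In DMSO the median was -1.48 for the 48 Mrpl genes and -1.28 for the 29 Mrps genes. The difference between them was not tested. All 12 Mrps genes with no bacterial counterpart, Mrps30 and Mrps36 included, were lower, with a median of -1.73.

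**Figure D1:**
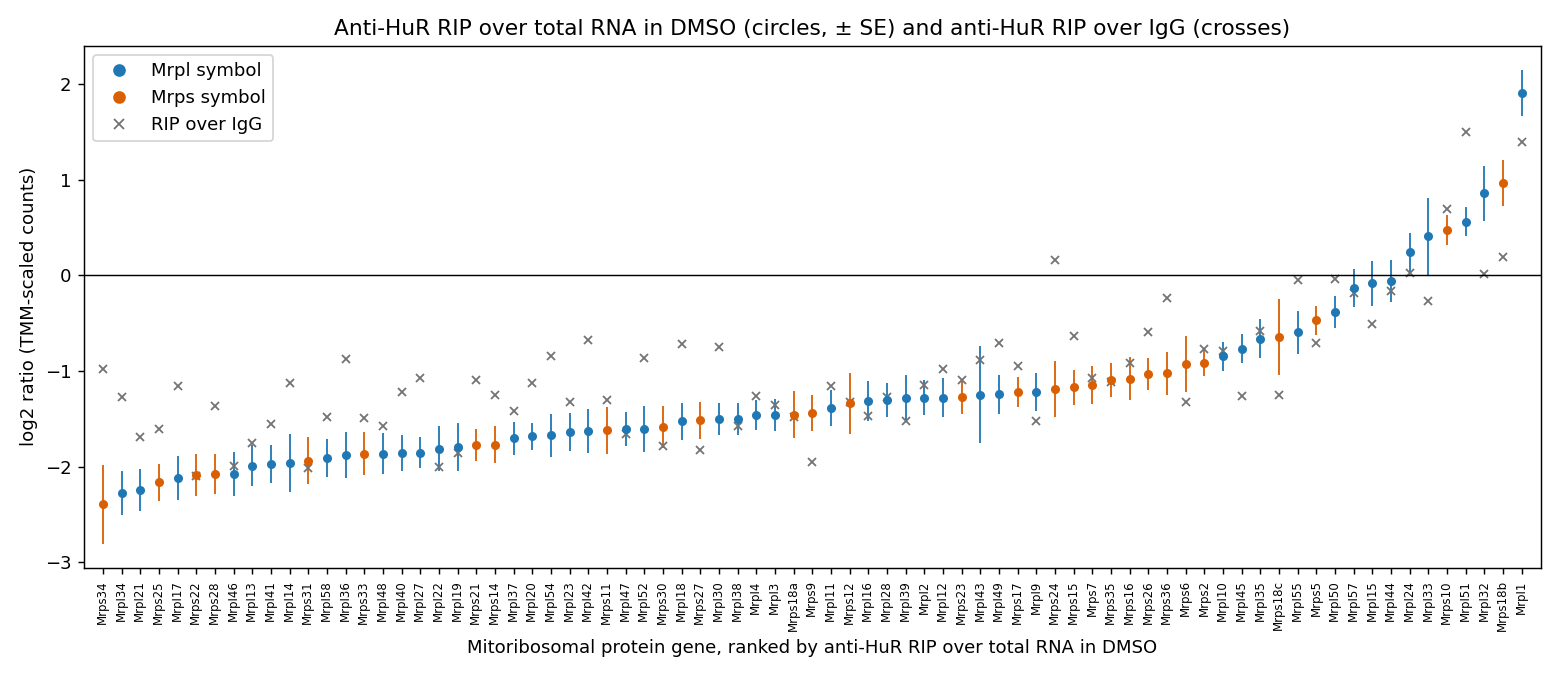
Log2 ratio of anti-HuR RIP over total RNA in DMSO (circles with SE, 4 against 4 libraries) for the 77 genes tested, ranked from low to high and coloured by symbol (Mrpl or Mrps), with the log2 ratio of anti-HuR RIP over IgG across all treatments as crosses. Most of both lie under 0. Mrpl1, Mrps18b, Mrpl32, Mrpl51 and Mrps10 are called higher than RNA, and Mrps18b (0.20) and Mrpl32 (0.02) lie near 0 against IgG.

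Most members were low against IgG as well. Against the 3 IgG libraries, with treatment as a covariate, 64 of the 77 were lower in the 12 RIP libraries and 3 were higher (34.2% of all genes lower and 33.8% higher, 68.1% in all), with a median log2 ratio of -1.13. Of the 63 members lower than RNA in all treatments, 60 were also lower than IgG, and the like share of all genes was not counted. The 3 members above IgG were Mrpl51, Mrpl1 and Mrps10. For the members under IgG, the RIP level is not shown to lie above the background of the immunoprecipitation, and changes of it with treatment are changes of the RIP libraries. Each treatment had a single IgG library, so the spread of IgG is estimated across treatments.

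Low recovery with HuR was also measured for other messages of ribosomal and mitochondrial proteins. Cytosolic ribosomal protein genes had 74 of 77 lower and 1 higher in DMSO, with a median log2 ratio of -1.88. Nuclear-encoded oxidative phosphorylation genes had 76 of 81 lower and 2 higher, with a median of -1.89. These are counts beside each other, and no difference between the sets was tested.

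Mrpl1 stood at the other end. It encodes the protein of the L1 stalk, on the side where tRNA leaves the ribosome, and lies at chr5:96357146-96414586 (+, GRCm39; ENSMUSG00000029486). In DMSO its level was 19.9, 25, 21.5 and 22.4 CPM in total RNA, and 64.7, 86.6, 92.5 and 66.7 CPM in RIP. The lowest RIP library lay above the highest RNA library, and the IgG library was at 21.6 CPM, within the range of RNA. The log2 ratio of RIP over RNA was 1.91 ± 0.24 (SE; FDR 1.33e-07) in DMSO, a ratio of 3.77. It was 1.48 ± 0.24 (FDR 6.34e-06) in LPS and 1.34 ± 0.24 (FDR 2.01e-05) in LPS+TM7nox. Against IgG it was 1.40 ± 0.24 (FDR 3.41e-05).

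Mrpl51, a protein of the large subunit found only in mitochondria, was enriched in every treatment. Its RNA was at 27.2, 42.4, 41.0 and 39.0 CPM in DMSO, at 23.2, 26.9, 26.5 and 25.5 CPM in LPS and at 25.3, 19.2, 21.2 and 21.7 CPM in LPS+TM7nox. In RIP it was at 54.5, 53.7, 51.9 and 45.7 CPM, then 41.1, 48.2, 48.1 and 39.1 CPM, then 43.9, 53.7, 46.6 and 44.5 CPM. The RNA libraries of both LPS groups lay under those of DMSO, while the RIP levels overlapped between all treatments. The log2 ratios of RIP over RNA were 0.56 ± 0.15 (FDR 0.0017), 0.81 ± 0.15 (FDR 4.67e-05) and 1.20 ± 0.15 (FDR 1.57e-07), and 1.5 ± 0.17 against IgG (FDR 1.74e-07). Neither change of this ratio between treatments passed the threshold.

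A further 3 members were enriched in some comparisons. Mrps10, whose bacterial counterpart sits in the head of the small subunit, had log2 ratios of RIP over RNA of 0.48 ± 0.16 (FDR 0.00825) in DMSO, 0.30 ± 0.15 (FDR 0.0926) in LPS and 0.53 ± 0.16 (FDR 0.00373) in LPS+TM7nox, and 0.69 ± 0.18 against IgG (FDR 0.00193). Its RIP replicate 4 was the lowest of each treatment, at 28.4, 29.4 and 27.2 CPM, where the other replicates lay between 36 and 54.9 CPM, and without DMSO RIP replicate 3 the DMSO call was lost. Mrps18b, 1 of the 3 relatives of the bacterial S18 protein, had 0.97 ± 0.24 (FDR 0.00108) in DMSO, -0.08 ± 0.24 (FDR 0.783) in LPS and 0.24 ± 0.24 (FDR 0.377) in LPS+TM7nox. Its relatives were not enriched: in DMSO, Mrps18a had -1.46 ± 0.25 (FDR 1.33e-05) and Mrps18c, at few counts, -0.64 ± 0.40 (FDR 0.155). Mrpl32, whose precursor a mitochondrial protease must process before assembly, had 0.86 ± 0.29 (FDR 0.0102) in DMSO, -0.70 ± 0.29 (FDR 0.0358) in LPS and -0.16 ± 0.29 (FDR 0.62) in LPS+TM7nox. The LPS value of Mrpl32 was past the threshold only with all libraries or without some of them: leaving out LPS RNA replicate 2, 3 or 4, or LPS RIP replicate 2, ended the call. Against IgG over all treatments, neither Mrps18b (0.20 ± 0.24, FDR 0.481) nor Mrpl32 (0.02 ± 0.29, FDR 0.962) passed the threshold, and that value pools treatments that lay on opposite sides. In DMSO, Mrpl32 was at 22.4 to 32.7 CPM in RIP and 14.1 in IgG, and Mrps18b at 6.55 to 13 and 5.93, so every RIP library lay above the IgG library. In LPS every RIP library lay below it: Mrpl32 reached at most 19.3 CPM in RIP beside 25.7 in IgG, and Mrps18b 7.49 beside 7.63. In LPS+TM7nox the RIP libraries lay on both sides. With 1 IgG library per treatment, no treatment could be tested on its own.

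All of these ratios are relative to the other genes. Scaled to total counts in place of TMM, the median of all genes moved from 0.04 to -0.72 in DMSO RIP over RNA, and by -1.0 and -0.98 in the other treatments; 1, 1 and 0 members were then higher and 71, 75 and 74 lower. Against IgG that scaling gave 1 higher and 74 lower. On that scale Mrpl51 was at -0.20 and Mrps10 at -0.31 in DMSO, while Mrpl1 was at 1.15 (FDR 9.28e-06). Mrpl1 was then at 0.48 in LPS (FDR 0.026), and its calls were lost in LPS+TM7nox (0.33, FDR 0.112) and against IgG (0.34, FDR 0.15).

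The lowest ratios in DMSO were those of Mrps34 (-2.39 ± 0.42, FDR 1.55e-05), Mrpl34 (-2.28 ± 0.23, FDR 3.29e-09), Mrpl21 (-2.25 ± 0.22, FDR 1.46e-09), Mrps25 (-2.17 ± 0.19, FDR 2.7e-10) and Mrpl17 (-2.12 ± 0.23, FDR 1.18e-08). Mrpl21 was at 27, 21.9, 30.1 and 26.0 CPM in DMSO RNA and at 5.95, 3.67, 5.55 and 5.12 CPM in RIP. No RIP library came near the RNA libraries, and IgG was at 19.3 CPM. In LPS the lowest were Mrps25 (-1.84), Mrps22 (-1.79), Mrps31 (-1.73) and Mrpl22 (-1.68), and Mrps22 (-2.10), Mrps31 (-2.02), Mrpl22 (-2.01) and Mrpl46 (-1.99) were the lowest against IgG. In LPS+TM7nox they were Mrps34 (-2.37), Mrpl21 (-2.23), Mrps33 (-2.22), Mrps28 (-2.13) and Mrpl34 (-2.05).

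Of the panel of 16 members with a known special role, 13 were lower in RIP than in RNA in DMSO, Mrps18a among them, beside 66 of all 77 members and 33.4% of all genes. Mrps18b was higher, and Mrpl44 and Mrps18c did not pass the threshold. In DMSO the stalk proteins had log2 ratios of RIP over RNA of -1.28 ± 0.21 (Mrpl12), -0.85 ± 0.15 (Mrpl10, the anchor of the stalk) and -1.39 ± 0.19 (Mrpl11, its base). Mrpl58, a hydrolase that releases stalled chains, had -1.91 ± 0.20, and Mrps12, of the decoding site, had -1.34 ± 0.32. Mrpl45, near the mouth of the exit tunnel, had -0.77 ± 0.15, and Mrps27, a protein with pentatricopeptide repeats, -1.52 ± 0.19. Mrpl41 (-1.97 ± 0.20), Mrpl37 (-1.71 ± 0.18) and Mrps30 (-1.59 ± 0.22), the last of which is built into the large subunit despite its symbol, were lower too, as was Mrps35 of the small subunit (-1.1 ± 0.18). Mrps36, now known as a part of the oxoglutarate dehydrogenase complex, had -1.02 ± 0.23. All of these passed the threshold, with FDRs at or under 0.000556. Mrpl44, which has the fold of an RNase III enzyme, did not pass it (-0.06 ± 0.22, FDR 0.824). Its ratio was 0.10 with the size factors of DESeq2.

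The 3′UTRs were read from 1 annotated transcript per gene in GENCODE M39. The median 3′UTR was 847 bases over the 77 members (85 to 6651) and 1348 bases over the 11093 coding genes tested. The T content (U in the RNA) was similar, with medians of 28.0% and 29.2%. A run of 7 T (TTTTTTT, read on the message strand) was in 27 of the 77 members, or 35.1%, and in 47.6% of coding genes. The looser TTTNTTT, which every run of 7 T also matches, was in 58.4% of members and 72.7% of coding genes, and ATTTA in 64.9% and 73.1%.

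Members with a run of 7 T had a median log2 RIP over RNA of -1.08 in DMSO, and the 50 members without one had -1.52. Among coding genes the same medians were 0.69 and -0.73. Across the 77 members, Spearman's rho of the DMSO ratio was 0.25 with 3′UTR length and 0.22 with T content; across coding genes it was 0.37 and 0.27. In LPS the same values were 0.16 and 0.06 for the members and 0.38 and 0.27 for coding genes, and in LPS+TM7nox 0.24 and 0.18 beside 0.39 and 0.32. These are descriptions across genes measured in the same libraries. Beside the members' median of -1.44, the 6184 other coding genes with a 3′UTR of 283 to 2220 bases, the middle range of the members, had a median of -0.37, and 42.6% of them were lower in RIP.

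**Figure D2:**
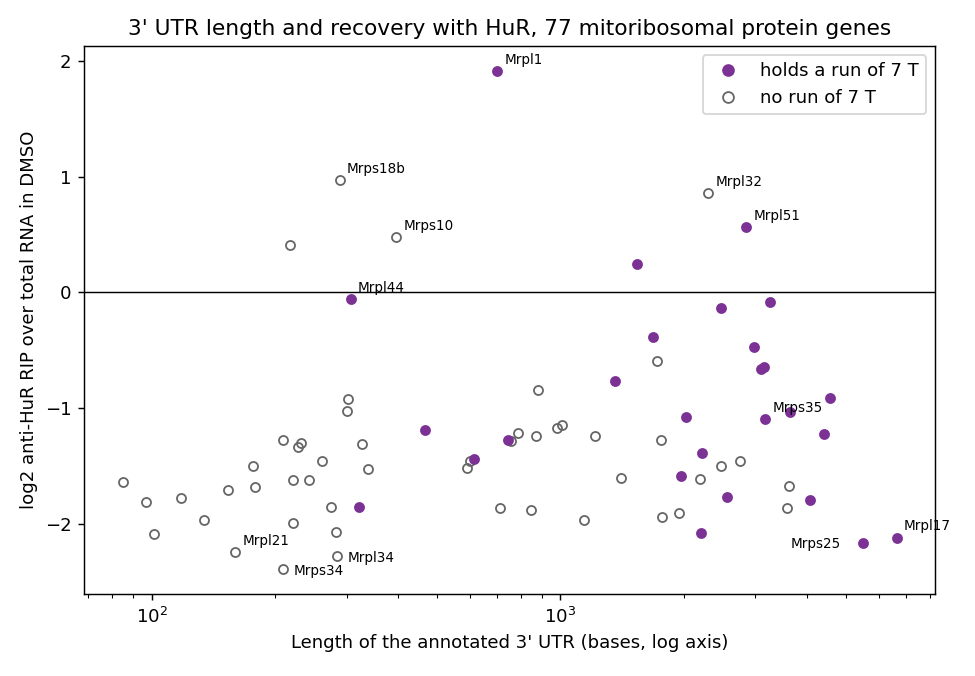
Length of the annotated 3′UTR (log axis) against log2 anti-HuR RIP over total RNA in DMSO for the 77 members, filled where the 3′UTR holds a run of 7 T. Mrpl1 has a 3′UTR of 700 bases and lies highest, while Mrpl17, with the longest at 6651 bases and 17 such runs, lies near the bottom.

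The most T-rich 30 bases of the 3′UTR are shown so that sequence and recovery can be read together. They are given for the 3 members enriched over both RNA and IgG and for Mrpl34 and Mrpl21 as members of low recovery. Mrpl17 and Mrps35 are given as members with a T-rich window that were low all the same. Over the whole 3′UTR, Mrpl17 held 31.3% T and Mrps35 28.0%. Letters in capitals are runs of 3 or more T.
Mrpl1: TTTTTTTTaaTTTTTaaTTTTTTTaTTTTT
Mrpl51: TTTaTTTTTaTTTaTTTTatcttaTTTTTT
Mrps10: tgtgctaaTTTTaTTTTgttcttaTTTatt
Mrpl34: aTTTctgtgaatataTTTgaaggcatcTTT
Mrpl21: ttctgaaatgtctaataaattcacgtctgt
Mrpl17: TTTTTTTTTTTTTaaTTTTTgTTTTTTTTT
Mrps35: tcTTTTTTTTaTTTcaTTTTTTTcTTTTTT
On GRCm39 these lie at chr5:96387035-96387064 (+) for Mrpl1, chr6:125170656-125170685 (+) for Mrpl51, chr17:47689484-47689513 (+) for Mrps10, chr8:71918270-71918299 (+) for Mrpl34, chr19:3341065-3341094 (+) for Mrpl21, chr7:105453629-105453658 (-) for Mrpl17 and chr6:146975080-146975109 (+) for Mrps35. The windows held 25 T in Mrpl1, 24 in Mrpl51, 20 in Mrps10, 14 in Mrpl34 and 12 in Mrpl21, but 27 in Mrpl17 and 25 in Mrps35. Which 3′UTR ends the macrophages use was not tested. A match of letters is not a measured binding site.

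LPS alone changed the level of some mitoribosomal protein messages in total RNA, in both directions. Against DMSO, 5 of 77 rose and 14 fell at FDR under 0.05, where 20.2% of all genes rose and 21.7% fell (42.0% in all), and the median of the members was -0.03. The share that fell (18.2%) is near that of all genes and the share that rose (6.49%) is under it. All 5 that rose were Mrpl genes: Mrpl52, Mrpl39, Mrpl13, Mrpl30 and Mrpl27. With the replicate number as a block, 12 rose and 19 fell, where 52.4% of all genes were called. With replicates 1 and 2 alone, 1 rose and 1 fell, and with replicates 3 and 4 alone 17 and 16. Scaled to total counts, 4 rose and 29 fell, and the median of all genes moved by -0.28. In bulk RNA, a change in every cell and a change in part of the cells cannot be told apart.

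Mrpl52, a mitochondria-specific protein of the large subunit (chr14:54664360-54668593, +; ENSMUSG00000010406), rose the most of the 77. It was at 41.7, 82.0, 51.5 and 60.3 CPM in DMSO, at 206, 301, 217 and 223 CPM in LPS and at 130, 171, 114 and 110 CPM in LPS+TM7nox. The 3 groups did not overlap, and LPS+TM7nox lay between the others. The change by LPS was 1.94 ± 0.21 on the log2 scale (FDR 4.5e-06), or 3.85-fold. In RIP it was at 23.5, 18.9, 15.1 and 14.3 CPM in DMSO, at 111, 130, 108 and 115 CPM in LPS and at 48.0, 40.6, 40.9 and 19.0 CPM in LPS+TM7nox. That was a log2 change of 2.65 ± 0.23 by LPS (FDR 2.07e-07), or 6.3-fold, while RIP stayed under RNA in every treatment. IgG moved with RNA, at 38.4, 154 and 77.1 CPM. The nearby gene Mmp14, for a matrix protease, went from 0.119 to 13.9 CPM in RNA. No exon of Mrpl52 overlapped another annotated gene, and the part of Mmp14 in the change of Mrpl52 was not tested.

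The other members that rose did so by less. Mrpl13 (log2 0.73 ± 0.17, FDR 0.00361) was at 20.8, 30.1, 26.3 and 31.3 CPM in DMSO and 32.5, 46.6, 52.8 and 57.0 CPM in LPS. Mrpl27, whose bacterial counterpart lies beside the peptidyl transferase centre, was at 9.20, 8.72, 8.42 and 10.4 CPM and then at 16.3, 11.9, 14.2 and 14.8 CPM (log2 0.59 ± 0.14, FDR 0.00375). Neither gene's DMSO and LPS libraries overlapped. Mrpl39 rose by 0.79 ± 0.23 (FDR 0.0132) and Mrpl30 by 0.60 ± 0.11 (FDR 0.000532).

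Mrps35, a mitochondria-specific protein of the small subunit, fell from 24.6, 31.2, 32.1 and 37.0 CPM in DMSO to 11.2, 15.3, 14.2 and 15.5 CPM in LPS (log2 -1.21 ± 0.14, FDR 9.21e-06). It was at 13.1, 16.6, 14 and 14.3 CPM in LPS+TM7nox, so the LPS and LPS+TM7nox libraries overlapped. Mrpl34 fell from 14.8, 20.3, 27.1 and 22.3 CPM to 8.11, 12.1, 11.9 and 10.9 CPM (log2 -1.04 ± 0.21, FDR 0.00114). Mrpl18, which in bacteria binds the 5S ribosomal RNA, fell from 60.3, 70.9, 65.3 and 72.4 CPM to 43.6, 43.9, 27.3 and 35.9 CPM (log2 -0.89 ± 0.15, FDR 0.000318). The DMSO and LPS libraries of these 3 genes did not overlap. Mrps26 (-0.73 ± 0.15, FDR 0.000989), Mrps23 (-0.70 ± 0.13, FDR 0.000655), Mrpl41 (-0.70 ± 0.17, FDR 0.00376), Mrpl51 (-0.61 ± 0.14, FDR 0.00244) and Mrpl42 (-0.60 ± 0.18, FDR 0.0141) also fell with no overlap. Mrpl12 fell by 0.69 on the log2 scale (SE 0.20, FDR 0.0115), but its DMSO replicate 1, at 92.4 CPM, lay within the LPS range of 77.6 to 105 CPM, where the other DMSO replicates were at 138 to 162 CPM. The calls for Mrps2, Mrpl2 and Mrpl36 were lost when single libraries were left out. Mrps34, at few counts, did not pass the threshold (log2 -1.1 ± 0.43, FDR 0.0533), but did with the replicate block (-1.11, FDR 0.027).

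Mrps6 had the largest fall by value (log2 -1.22 ± 0.30, FDR 0.00459), from 9.41, 29.6, 18.4 and 27.6 CPM in DMSO to 5.73, 10.4, 10.6 and 11.9 CPM in LPS. DMSO replicate 1 overlapped the LPS libraries. Its annotated exons share 709 bases on the same strand with Slc5a3, a myo-inositol transporter gene, which fell from 153 to 10 CPM (log2 -3.98). Reads of the shared stretch cannot be told apart between the 2 genes, so the change of Mrps6 is uncertain.

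More members rose than fell in the RIP libraries after LPS. In RIP, 20 of 77 rose and 4 fell against DMSO, where 23.5% of all genes rose and 21.2% fell (44.7% in all), and the median of the members was 0.19. The share that rose (26.0%) is near that of all genes, and the share that fell (5.19%) is under it. Over the same RIP libraries, 64 of 77 cytosolic ribosomal protein genes rose and 0 fell, with a median of 0.81. Of 79 nuclear-encoded oxidative phosphorylation genes, 37 rose and 1 fell, with a median of 0.59. The difference between these sets was not tested. All 5 members that rose in RNA also rose in RIP, and of the 14 that fell in RNA and the 4 that fell in RIP, 2 were shared, Mrps35 and Mrps6. The direction rests on the scaling: scaled to total counts, 3 rose and 23 fell, and the median of all genes moved by -0.63. Leaving out DMSO RIP replicate 2 left 11 that rose and 4 that fell, leaving out DMSO RIP replicate 3 left 12 that rose, and leaving out DMSO RIP replicate 4 or LPS RIP replicate 3 or 4 left 13. With the replicate block 28 rose and 8 fell, where 59.3% of all genes were called, and replicates 1 and 2 alone gave 6 and 3.

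Mrpl27 rose in RIP from 2.39, 1.93, 2.77 and 2.27 CPM to 7.39, 6.92, 8.15 and 7.72 CPM (log2 1.66 ± 0.19, FDR 4.7e-06), or 3.15-fold, next after Mrpl52. Mrpl13 rose from 5.82, 6.65, 7.61 and 5.37 CPM to 12.3, 13.3, 16.0 and 18.9 CPM (log2 1.22 ± 0.18, FDR 6.15e-05). Mrpl30 rose by 1.04 ± 0.19 (FDR 0.000322) and Mrps18a by 0.90 ± 0.21 (FDR 0.00243). Those of the panel with special roles that rose included Mrpl37 (0.72 ± 0.20, FDR 0.00852), Mrpl11 (0.71 ± 0.20, FDR 0.00944) and Mrps30 (0.66 ± 0.24, FDR 0.0372). The call for Mrps30 held only with some libraries, since 6 of the 8 fits without a single library lost it. Mrpl58, also of the panel, had a mean of 4.25 ± 0.91 CPM in DMSO RIP and 7.16 ± 1.56 CPM in LPS RIP (SD), with overlapping libraries.

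The members that fell in RIP were Mrps6, Mrpl32, Mrps35 and Mrps18b. Mrpl32 was at 31.3, 28.8, 32.7 and 22.4 CPM in DMSO RIP and 19.3, 9.54, 17.9 and 14.6 CPM in LPS RIP (log2 -0.94 ± 0.27, FDR 0.0107), with no overlap, while its RNA was at 9.63, 23.6, 16.1 and 17.5 CPM and then 19.1, 26.4, 26.7 and 29.0 CPM. Mrps35 was at 12, 12.4, 15.2 and 14.7 CPM and then 8.19, 6.61, 7.67 and 7.20 CPM (log2 -0.90 ± 0.18, FDR 0.000735). Mrps6 fell by 1.30 on the log2 scale (SE 0.21, FDR 0.000127), again with Slc5a3, which had a log2 change of -4.11 in RIP. Mrps18b had -0.71 ± 0.25 (FDR 0.0267), with overlapping libraries.

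**Figure D3:**
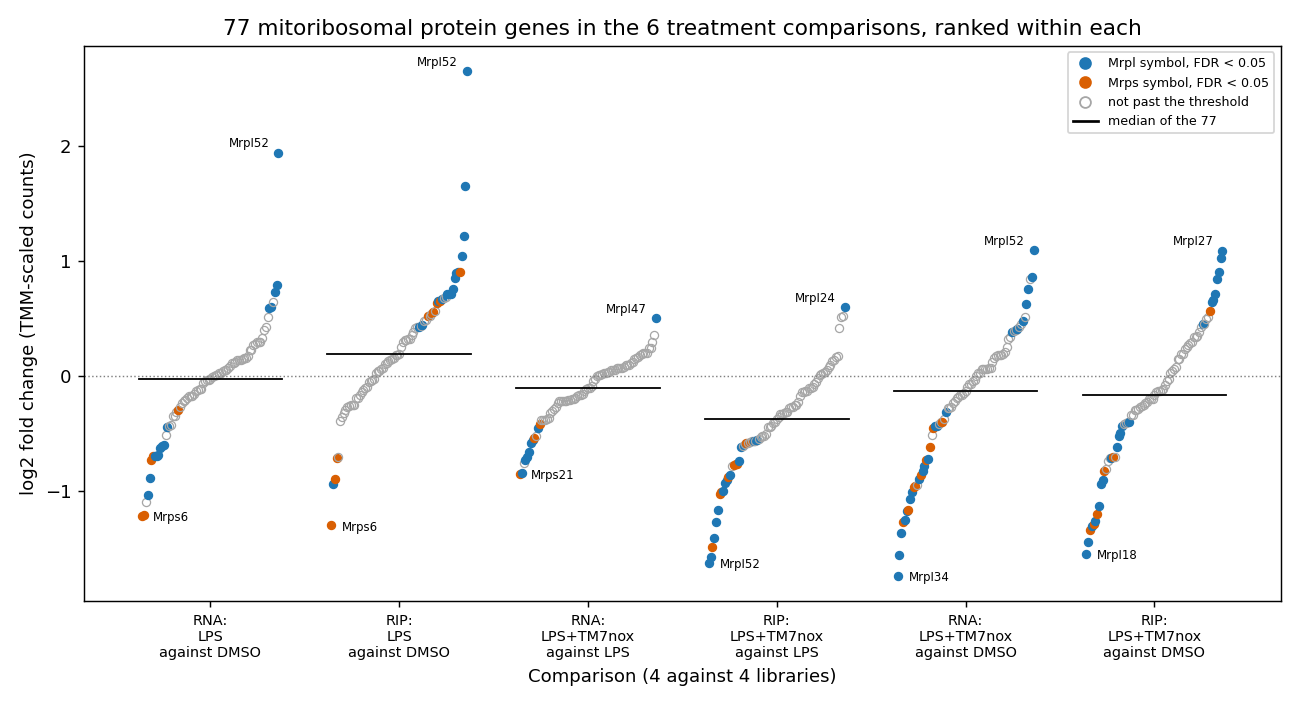
Log2 fold change of each of the 77 members in the 6 treatment comparisons, ranked within each comparison, filled where FDR is under 0.05 and coloured by symbol (Mrpl or Mrps), with the median of the 77 as a bar. The medians are 0.19 for LPS against DMSO in RIP and -0.37 for LPS+TM7nox against LPS in RIP, and Mrpl52 is at the top of both LPS comparisons. Comparisons with a group in common share its libraries.

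With TM7nox added to LPS, part of the mitoribosomal messages fell, in total RNA and in the RIP libraries. In total RNA, 10 of 77 fell and 1 rose against LPS, where 6.40% of all genes fell and 7.37% rose (13.8% in all), and the median of the members was -0.11. In RIP, 21 fell and 1 rose, where 7.61% of all genes fell and 8.64% rose (16.2% in all), and the median was -0.37 with 62 of 77 values under 0. The members' share that fell was thus 13.0% in RNA and 27.3% in RIP. Of the 10 that fell in RNA and the 21 that fell in RIP, 8 were shared: Mrpl18, Mrpl20, Mrpl34, Mrpl36, Mrpl42, Mrpl52, Mrps21 and Mrps26. With the replicate block, 14 fell and 1 rose in RNA, where 25% of all genes were called, and 35 fell and 4 rose in RIP, where 33.6% were. Over the same RIP libraries, 15 of 79 nuclear-encoded oxidative phosphorylation genes fell and none rose, and none of 77 cytosolic ribosomal protein genes passed the threshold.

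These counts depend on single libraries in RNA. Leaving out 1 library at a time gave 4 to 9 members in all, and each RNA library of the 2 groups but LPS+TM7nox replicate 1 lowered the count to 6 or fewer; Mrps21, Mrpl52, Mrpl18 and Mrpl20 were called in every such fit, and the other 7 were not. Replicates 1 and 2 alone gave 0 and replicates 3 and 4 alone 24. In RIP, 12 of the 22 were called in every such fit, with 13 to 20 members in all: Mrpl11, Mrpl12, Mrpl17, Mrpl18, Mrpl20, Mrpl34, Mrpl36, Mrpl42, Mrpl52, Mrps15, Mrps21 and Mrps26. Replicates 1 and 2 alone gave 4 members in RIP, replicates 3 and 4 alone 11, and scaling to total counts 14. The libraries whose absence lowered the RIP count by over 1.5 times were LPS replicate 4 (13 members) and LPS+TM7nox replicates 2 and 4 (14 each). LPS+TM7nox RIP replicate 4 had the lowest summed level of the members, 664 CPM, where the other 3 were at 948 to 1093 CPM.

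Mrpl52 fell from the levels given above in RNA (log2 -0.85 ± 0.20, FDR 0.0119) and in RIP (-1.63 ± 0.23, FDR 2e-04). Mrpl34 was at 8.76, 6.52, 6.56 and 4.52 CPM in LPS+TM7nox RNA, where replicate 1 overlapped LPS (log2 -0.70 ± 0.21, FDR 0.0411). In RIP it was at 4.91, 3.44, 4.02 and 3.84 CPM in DMSO, at 4.35, 4.14, 3.89 and 5.77 CPM in LPS and at 1.75, 1.54, 1.78 and 0.834 CPM in LPS+TM7nox. DMSO and LPS overlapped and LPS+TM7nox lay under both (log2 -1.58 ± 0.24 against LPS, FDR 0.000479), a 2.98-fold fall. The exons of Mrpl34 overlap those of a gene on the other strand by 537 bases, and strand use in counting is not given in the sources used here.

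Mrpl18 was at 25.2, 26.2, 22.9 and 20.6 CPM in LPS+TM7nox RNA (log2 -0.67 ± 0.15, FDR 0.00992). In RIP it went from 20.4, 19.5, 15.9 and 16.8 CPM in LPS to 10.4, 6.77, 8.01 and 4.17 CPM (log2 -1.28 ± 0.21, FDR 0.000833). Neither assay had overlapping libraries. Mrpl18 shares 301 exon bases with Tcp1, a chaperonin gene on the other strand. Mrpl12 was at 51.4, 47.6, 44.8 and 44.7 CPM in LPS RIP and at 30.1, 28.0, 25.1 and 13.8 CPM in LPS+TM7nox RIP (log2 -0.94 ± 0.19, FDR 0.00307), while its RNA ranges, 77.6 to 105 CPM and 51.6 to 89.5 CPM, overlapped. Mrpl11, the base of the stalk, fell in RIP (log2 -1.0 ± 0.21, FDR 0.00382).

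Among the others, Mrps21 fell in RNA (log2 -0.85 ± 0.18, FDR 0.00642) and in RIP (-1.01 ± 0.19, FDR 0.00193). Mrpl36, a small zinc-binding protein, fell as well (-0.74 ± 0.20, FDR 0.0267, and -1.41 ± 0.27, FDR 0.00203), and so did Mrps26 (-0.54 ± 0.15, FDR 0.0227, and -0.88 ± 0.18, FDR 0.00398). The members that rose were Mrpl47 in RNA (0.50 ± 0.15, FDR 0.0346) and Mrpl24 in RIP (0.60 ± 0.20, FDR 0.0489), and both calls were lost in 7 of the 8 fits without a single library. Mrpl17 did not pass the threshold in RNA, but did with the replicate block (log2 -0.74, FDR 0.00343).

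**Figure D4:**
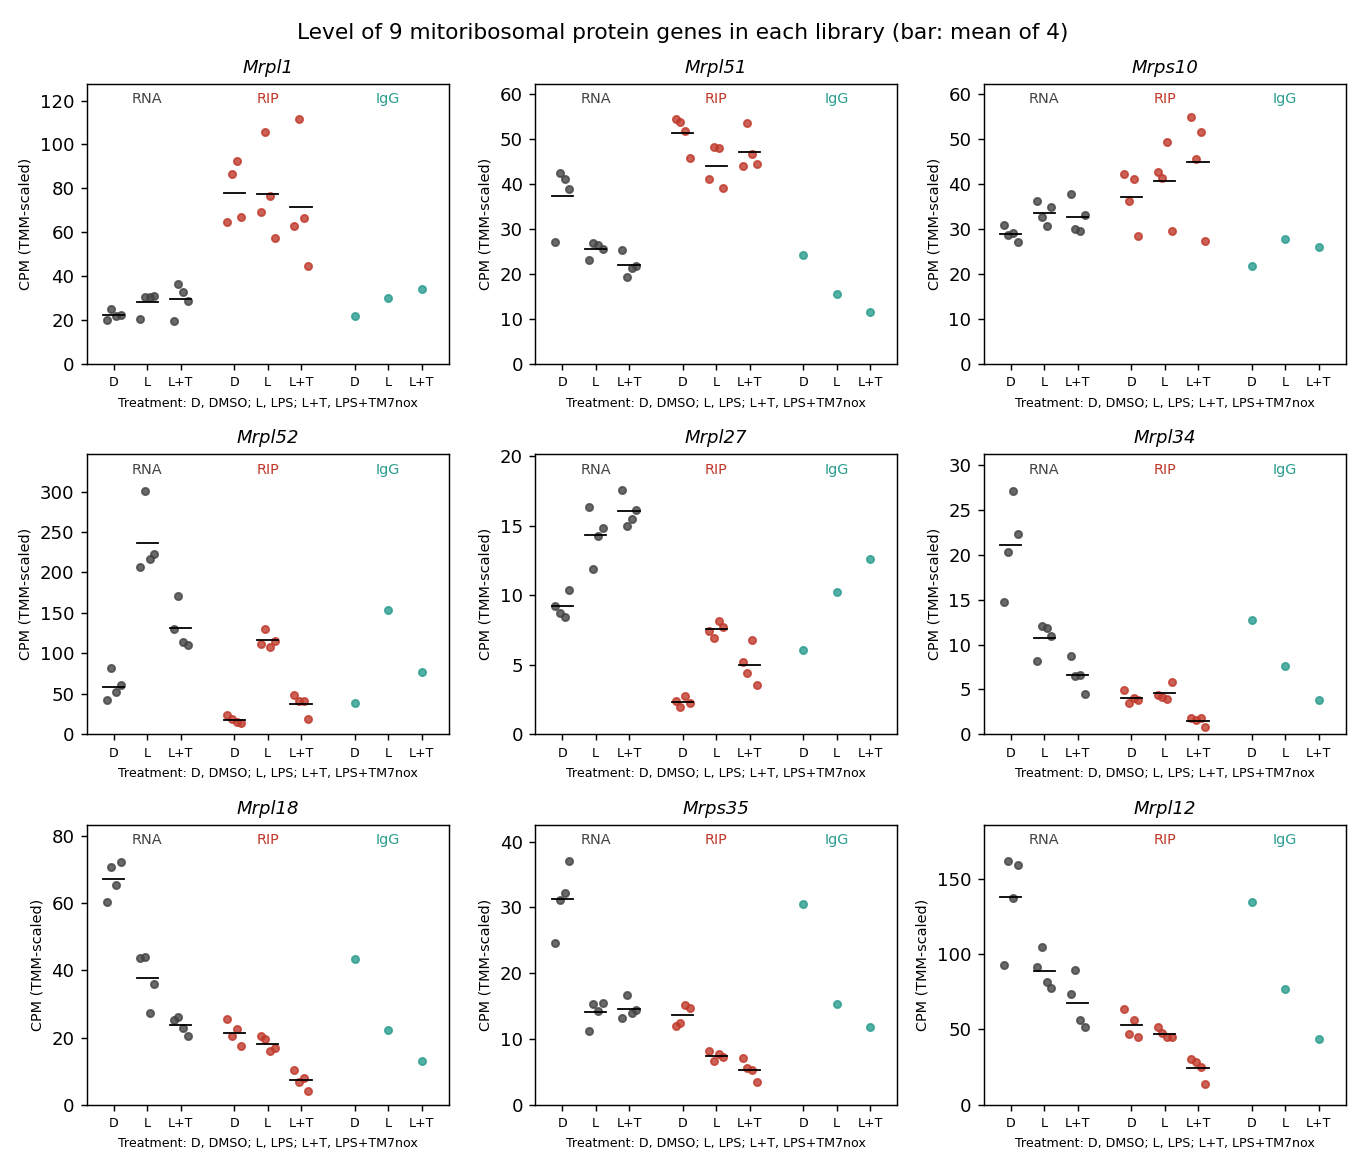
Level in CPM (TMM scale) of 9 members in every library, by assay and treatment, with the mean of 4 libraries as a bar (IgG has 1 library per treatment). Mrpl1, Mrpl51 and Mrps10 lie higher in RIP than in IgG, Mrpl52 and Mrpl27 rise with LPS in both assays, and Mrpl34, Mrpl18 and Mrpl12 are lowest in RIP of LPS+TM7nox.

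Set against DMSO, LPS+TM7nox lowered 23 members and raised 7 in RNA (23.6% of all genes fell and 23.7% rose, 47.3% in all), with a median of -0.13. In RIP, 18 fell and 9 rose (23.1% and 25.1% of all genes, 48.1% in all), with a median of -0.17. This comparison shares libraries with the others. Of the 23 and the 18 that fell, 14 were shared. The largest falls in RNA were those of Mrpl34 (-1.74 ± 0.22, FDR 1.45e-05), Mrpl18 (-1.56 ± 0.16, FDR 2.06e-06), Mrpl36 (-1.37 ± 0.21, FDR 8.1e-05) and Mrps26 (-1.28 ± 0.15, FDR 7.46e-06). Mrpl12 fell in RNA (-1.07 ± 0.20, FDR 0.000461) and in RIP (-1.13 ± 0.19, FDR 0.000125). Mrpl52 (1.1 ± 0.20, FDR 0.000491), Mrpl39 (0.86 ± 0.23, FDR 0.00743), Mrpl27 (0.75 ± 0.14, FDR 0.00054) and Mrpl13 (0.63 ± 0.17, FDR 0.00861) remained above DMSO in RNA. In RIP, Mrpl18 (-1.55 ± 0.21), Mrpl34 (-1.44 ± 0.24), Mrps35 (-1.34 ± 0.18), Mrpl42 (-1.31 ± 0.26) and Mrps6 (-1.29 ± 0.21) were the lowest without overlap, and Mrpl27 (1.09 ± 0.19), Mrpl13 (0.90 ± 0.18) and Mrpl39 (0.84 ± 0.18) the highest without overlap, all with FDRs at or under 0.00097. Mrpl52 rose too (1.02 ± 0.22, FDR 0.0014), with overlapping libraries. Scaled to total counts, 3 rose and 41 fell in RNA, and 0 rose and 46 fell in RIP. The count that rose in RNA was 15 with the replicate block and 13 without LPS+TM7nox RNA replicate 1, and that in RIP was 5 without LPS+TM7nox RIP replicate 1. With the block, 58% of all genes were called in RNA, both directions together.

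Whether the effect of treatment differed between the assays was tested as the change of RIP over RNA. No member passed the threshold by edgeR in either comparison, where 0.0419% of all genes did for LPS (6 genes; 0.0140% higher and 0.0280% lower) and 0.00699% for TM7nox (1 gene). At an unadjusted p under 0.05, 10 members stood out for LPS, 8 of them upward, where 7.27% of all genes did, and 10 for TM7nox, 9 of them downward, where 5.39% of all genes did. The median change was 0.25 for LPS, with 63 of 77 values above 0, and -0.31 for TM7nox, with 61 under 0. Over all genes the medians were 0.018 and 0.002. They were 0.39 and -0.29 for cytosolic ribosomal protein genes, and 0.41 and -0.37 for nuclear-encoded oxidative phosphorylation genes. The changes by LPS and by TM7nox share the LPS libraries. DESeq2 called 3 members for LPS, Mrpl27 (0.96, FDR 0.00463), Mrpl34 (1.08, FDR 0.0475) and Mrpl32 (-1.57, FDR 0.013), and none for TM7nox. With the replicate block, edgeR called Mrpl27 alone for LPS (0.97, FDR 0.0416), where 0.349% of all genes were called (50 genes). With no filter on low counts it called Mrpl32 alone (-1.43, FDR 0.00483), and with replicates 3 and 4 alone Mrpl32 again (-1.57, FDR 0.0311). For DESeq2 and these last 2 fits the share of all genes called was not counted.

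Summed over the 78 genes, the level on the TMM scale was 2340 ± 163 CPM in DMSO RNA, 2454 ± 75.1 in LPS RNA and 2134 ± 42.4 in LPS+TM7nox RNA (SD, n = 4). In RIP it was 1039 ± 93.9, 1266 ± 72.3 and 936.5 ± 191 CPM, and with IgG 1972, 2115 and 1808 CPM. The RIP libraries thus held less than the RNA and IgG libraries in every treatment. As a plain share of counts, the sum was 0.355 ± 0.0082%, 0.293 ± 0.0147% and 0.249 ± 0.0178% in RNA and 0.0994 ± 0.00552%, 0.0769 ± 0.00818% and 0.0578 ± 0.0132% in RIP. The IgG shares were 0.358% (exact 95% interval 0.356 to 0.361), 0.267% (0.265 to 0.269) and 0.241% (0.238 to 0.244), intervals that cover counting error only. The share was lower in LPS than in DMSO for every assay, while the level on the TMM scale was not. In RNA the DMSO libraries (2104 to 2480 CPM) and the LPS libraries (2362 to 2531) overlapped on the TMM scale. Without Mrpl52 the sum was 2281 ± 153 CPM in DMSO, 2217 ± 90 in LPS and 2002 ± 39.3 in LPS+TM7nox RNA, and the DMSO and LPS libraries overlapped as well. In RIP it was 1021 ± 93.2, 1150 ± 81 and 899.5 ± 180 CPM without Mrpl52. The TMM factors that separate the scales were 0.913 to 0.996 in DMSO RIP and 0.538 to 0.669 in LPS RIP.

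**Figure D5:**
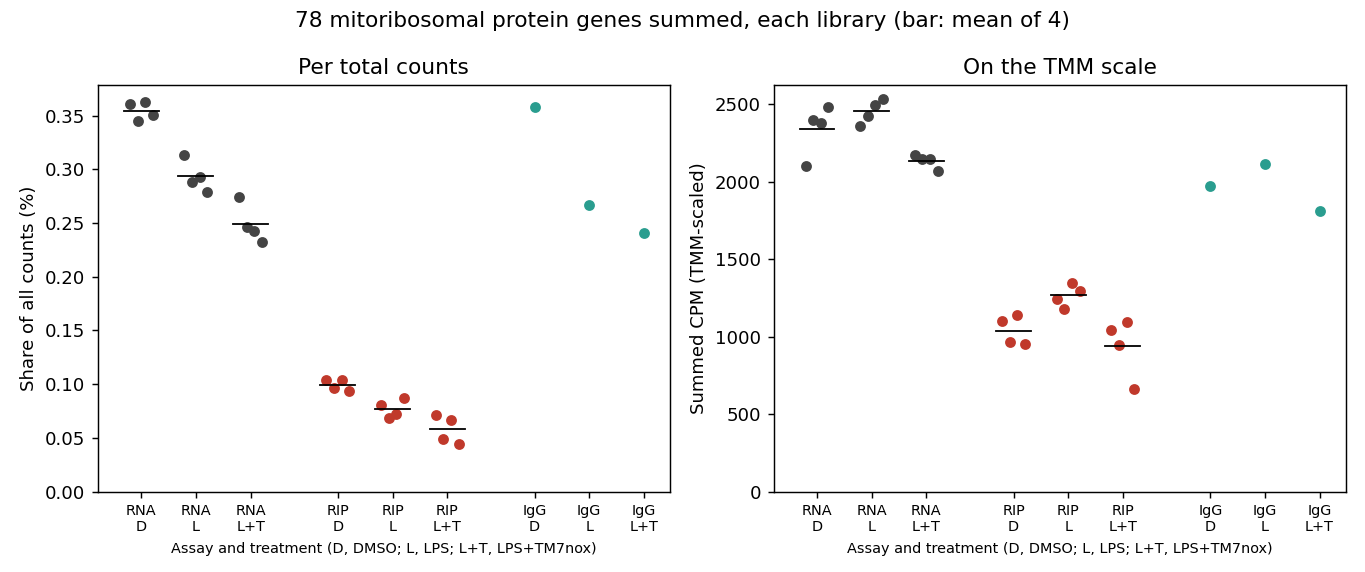
Sum over the 78 genes in each library, as a share of all counts (left) and as CPM on the TMM scale (right), with the mean of 4 libraries as a bar. RIP libraries lie under RNA and IgG on both scales, and the fall from DMSO to LPS seen on the left is not seen on the right.

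Genes that build or serve the mitochondrial ribosome were read from lists. Of 5 mitoribosomal proteins with other symbols, Dap3, a GTP-binding protein of the small subunit, was higher in RIP than in RNA in DMSO (log2 0.98 ± 0.15, FDR 2.2e-06) and fell in RIP after LPS by 1.06 (SE 0.16, FDR 5.55e-05). Gadd45gip1 was higher as well (1.36 ± 0.60, FDR 0.0454). Neither was called higher in LPS, in LPS+TM7nox or against IgG: Dap3 had 0.04 ± 0.15 (FDR 0.811), 0.05 ± 0.15 (FDR 0.771) and 0.13 ± 0.17 (FDR 0.507), and Gadd45gip1 0.86 ± 0.60 (FDR 0.216), 0.70 ± 0.60 (FDR 0.3) and 0.32 ± 0.40 (FDR 0.495). In DMSO, Chchd1 (-1.64 ± 0.20, FDR 5.85e-08), Aurkaip1 (-1.59 ± 0.17, FDR 7.38e-09) and Ptcd3 were lower. Ptcd3 fell in RNA after LPS (-0.46 ± 0.13, FDR 0.0115). Aurkaip1 rose in RIP with LPS (0.58 ± 0.18, FDR 0.014) and fell in RIP with TM7nox (-0.58 ± 0.18, FDR 0.0352).

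Of 14 mitochondrial translation factors tested, 11 were lower and 1 higher in RIP than in RNA in DMSO, beside 33.4% and 37.0% of all genes. The gene above was Tsfm, an elongation factor (1.34 ± 0.18, FDR 2.77e-07), and the lowest was Tufm, its partner (-2.23 ± 0.16, FDR 5.06e-12). LPS lowered 4 in RNA and raised none, beside 21.7% and 20.2% of all genes, with Guf1 (-0.89 ± 0.20, FDR 0.00257) and Tsfm (-0.64 ± 0.16, FDR 0.00463) the furthest, and TM7nox changed none against LPS in either assay. Of 26 genes for assembly and rRNA modification, 16 were lower and 5 higher in RIP. Ybey, an RNA nuclease (4.54 ± 0.19, FDR 6.41e-16), and the GTPase Gtpbp10 (3.25 ± 0.24, FDR 7.57e-12) were the highest. LPS lowered 7 of the 26 in RNA, a share near that of all genes, led by Mrm1 (-1.41 ± 0.34, FDR 0.00449) and Rbfa (-1.36 ± 0.21, FDR 0.000156), and raised the helicase gene Ddx28 (0.92 ± 0.19, FDR 0.00116) and Mterf4 (0.66 ± 0.16, FDR 0.00357). Against LPS, TM7nox raised 3 and lowered 1 of the 26 in RNA, beside 7.37% and 6.40% of all genes, and raised 1 and lowered 1 of 25 in RIP, beside 8.64% and 7.61%. It lowered Ddx28 in RNA (-0.69 ± 0.18, FDR 0.0209) and in RIP (-1.06 ± 0.31, FDR 0.03) and raised Mterf3 in both (0.67 ± 0.21, FDR 0.0425, and 0.87 ± 0.21, FDR 0.00951).

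Of 9 genes for mitochondrial transcription and DNA replication, 4 were higher in RIP than in RNA in DMSO, led by Polg2 (2.58 ± 0.27, FDR 4.95e-09). Another 2 were lower, led by Polrmt, the mitochondrial RNA polymerase (-1.45 ± 0.21, FDR 1.3e-06). These shares are not far from the 37.0% and 33.4% of all genes. LPS lowered 4 of 8 in RNA, among them Twnk (-0.93 ± 0.21, FDR 0.00276) and Polrmt (-0.82 ± 0.15, FDR 0.000703). Of 11 regulators of mitochondrial gene expression, LPS raised 3 and lowered 2 in RNA, where 20.2% of all genes rose and 21.7% fell. Myc (3.55 ± 0.86, FDR 0.00403) and Ddit3 (1.98 ± 0.28, FDR 5.7e-05) rose, and Ppargc1b, a coactivator of mitochondrial biogenesis, fell (-2.91 ± 0.47, FDR 0.000177). Of the 11, TM7nox raised 3 and lowered 1 against LPS in RNA, where 7.37% of all genes rose and 6.40% fell. It raised Ddit3 (2.85 ± 0.28, FDR 2.31e-05) and Atf5 (1.70 ± 0.44, FDR 0.0184), genes of the stress response, and lowered Esrra (-0.78 ± 0.19, FDR 0.0119). In RIP, LPS raised 23.5% and lowered 21.2% of all genes. There it raised 2 and lowered 2 of the 14 translation factors, and raised 1 and lowered 4 of 25 assembly genes. It raised 1 and lowered 2 of the 9 transcription and replication genes, and raised 3 and lowered 1 of 11 regulators. TM7nox changed none of the transcription and replication genes against LPS in either assay. In RIP it raised 2 regulators, Ddit3 (2.05 ± 0.32, FDR 0.000572) and Gabpb1, and lowered Esrra, beside 8.64% and 7.61% of all genes.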

How the data were processed

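Counts per Ensembl gene came from the deposited table, which the authors made from stranded SMART-Seq libraries; its values are raw counts, per the file headers and values. The submitters' processing notes name GRCm39, FastQC 0.11.9, STAR, HTSeq and DESeq2. Neither source states the annotation release or the strand setting used for counting. The table's rows were matched to GENCODE M39 on GRCm39 for 51731 of 55483 genes, all 78 members included.

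Genes were filtered with filterByExpr (minimum count 10), scaled by TMM and tested with edgeR 4.0.16 (R 4.3.3, limma 3.58.1, DESeq2 1.42.0), with quasi-likelihood F tests and Benjamini-Hochberg adjustment over all genes at FDR 0.05. The log2 CPM values used to check overlap between libraries had a prior count of 2, which the fold changes did not use. The RNA comparisons used the 12 RNA libraries, the RIP comparisons the 12 RIP libraries, RIP over RNA and its changes all 24, and RIP against IgG 15 libraries with treatment as a covariate. Only the RNA fit, for LPS against DMSO, was tested on simulated data, and the outcome is not given here. The members and gene lists were chosen with earlier results of these data known. Members were named by rule: in each comparison the 4 with the largest called change in each direction, with a mean of at least 5 CPM and no overlap between the groups; a panel of 16 with special roles; and the highest and lowest per kilobase. Members outside the rule, such as Mrps34, were named after their values were seen.

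Depth was 2.73 M to 41.4 M counts, and groups followed the labels. Replicates of a group differed by more than counting error in all 36 pairs. Same-numbered libraries deviated together in all 9 comparisons between groups of 4 (correlations 0.30 to 0.74), and each was closest to its own number, so the number was also fitted as a block. Alternatives were DESeq2, other scalings, no filter, replicates 1 and 2 or 3 and 4 alone and leaving out each library. A sum without Mrpl52 was added after seeing the data.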

Additional observations from a re-analysis of the deposited data

Results flagged for a closer look

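Of 102 groups of 4 libraries checked for a library far from the others, 2 stood out, where chance alone gives about 1 in 20. Mrpl1 in LPS RNA had its lowest level, 20.6 CPM, in replicate 1, where the nearest library was at 30.4 CPM. Mrps18b in LPS+TM7nox RNA had its lowest level, 5.55 CPM, also in replicate 1, where the nearest was at 8.55 CPM. The reason was not tested.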

How the results depend on the processing

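The counts below are members past the threshold, and the cause of each shift was not tested. For alternatives other than the replicate block, the share of all genes called was not counted. Scaled to total counts, LPS against DMSO gave 33 in RNA, LPS+TM7nox against LPS 14 in RIP, and LPS+TM7nox against DMSO 46 in RIP. Replicates 1 and 2 alone, in the order LPS against DMSO, LPS+TM7nox against LPS and LPS+TM7nox against DMSO, gave 2, 0 and 9 in RNA and 9, 4 and 15 in RIP. Replicates 3 and 4 alone gave 33, 24 and 51 in RNA, and 11 and 17 in RIP for the comparisons of LPS+TM7nox with LPS and DMSO. The change of RIP over RNA by LPS, with 0 called by edgeR's main test, gave 3 with DESeq2, 1 with no filter on low counts, 1 with the block and 1 with replicates 3 and 4.

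With the replicate block, the pairing raised LPS against DMSO in RNA to 31 members and LPS+TM7nox against LPS in RIP to 39; the other totals moved by 1.5 times or less, apart from the change of RIP over RNA by LPS. By direction, the members raised by LPS+TM7nox against DMSO in RNA went from 7 to 15, and those lowered by LPS in RIP from 4 to 8.

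Leaving out 1 library at a time gave, for LPS against DMSO, LPS+TM7nox against LPS and LPS+TM7nox against DMSO, 17 to 21, 4 to 9 and 23 to 31 in RNA and 15 to 25, 13 to 20 and 22 to 26 in RIP. For RIP over RNA the ranges were 68 to 71 (DMSO), 66 to 70 (LPS) and 69 to 71 (LPS+TM7nox), and for RIP against IgG 62 to 67.

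Counted without mitochondrially encoded genes and Actb, the members' share was 0.444%, 0.352% and 0.303% in DMSO, LPS and LPS+TM7nox RNA, 0.111% and 0.0923% in DMSO and LPS RIP, and 0.384%, 0.287% and 0.256% with IgG.

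Some log2 ratios of RIP over RNA changed sign. Under total counts Mrpl51 was at -0.20 in DMSO and -0.19 in LPS. Mrps10 was at -0.31, -0.72 and -0.45 in DMSO, LPS and LPS+TM7nox, and in LPS+TM7nox Mrps18b was at -0.70 and Mrpl24 at -0.36. With DESeq2's size factors in edgeR, and with DESeq2 itself, Mrpl44 in DMSO was at 0.10 and 0.10, Mrps18b in LPS at 0.10 and 0.10, and Mrpl32 in LPS+TM7nox at 0.0581 and 0.0562. With replicates 1 and 2, Mrps18b in LPS was at 0.24 and Mrpl32 in LPS+TM7nox at 0.27; with replicates 3 and 4, Mrpl44 in DMSO was at 0.14 and Mrps18b in LPS+TM7nox at -0.13. Without single libraries, Mrpl44 in DMSO ranged from -0.319 (without RIP replicate 3) to 0.0853 (without RIP replicate 1), and Mrpl32 in LPS+TM7nox from -0.439 (without RIP replicate 1) to 0.065 (without RIP replicate 2). Against IgG, total counts gave Mrps10 -0.34, Mrps18b -0.83 and Mrpl32 -1.0. Mrps18b ranged from -0.0556 without the DMSO IgG library to 0.51 without that of LPS, and Mrpl32 from -0.357 to 0.586. Mrpl32 was at -0.01 without LPS RIP replicate 1, at -0.10 without LPS+TM7nox RIP replicate 1 and at -0.05 without the LPS+TM7nox IgG library.

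Depth limits the members with few counts, Mrps34, Mrps18c, Mrpl33 and Mrpl43, and DMSO RNA replicate 1. Without that library, LPS against DMSO in RNA gave 7 that rose and 12 that fell.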
